A study of Canis lupus familiaris with 8 samples.

Results

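The MYC, MAX and MXD network was described through 10 genes chosen by symbol, MYC, MYCN, MYCL, MAX, MXD1, MXD3, MXD4, MXI1, MNT and MLX. All 10 had a row among the 30424 genes of the deposited table. RNA sequencing covered 8 libraries of cultured dog cells and was given as TPM, a gene's share of transcripts corrected for transcript length and scaled to a common total. The JuB2 line was derived from hemangiosarcoma, a cancer of vessel-lining type. In 3 JuB2 libraries the cells expressed a scramble short hairpin RNA (shRNA), in 3 they are labelled as a knockdown of KDM2B by shRNA, and 1 JuB2 library had no treatment. The last library carries the label EC and stands for untreated normal endothelial cells. KDM2B is a histone demethylase and a subunit of a Polycomb complex, and the study asked how it bears on viability and DNA damage responses in this tumour. The hairpin groups are a single cell line with a single hairpin name each. The labels do not say that replicates came from separate cultures, and p-values therefore cover only the spread among these libraries, which may be technical.

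MYC proteins are basic helix-loop-helix leucine zipper factors that bind DNA as a dimer with MAX and raise transcription of genes for ribosome production, nucleotide synthesis, metabolism and cell division. The MXD proteins and MNT take the place of MYC on MAX and recruit SIN3 and histone deacetylases, so that the same E-box sites are repressed. MLX is a MAX-like factor that pairs with MLXIP and MLXIPL, which respond to sugar phosphates, and with some MXD proteins and MNT. These roles were worked out mainly in human and mouse cells.

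KDM2B held 14.01, 15.01 and 12.89 TPM in scramble, against 20.88, 19.69 and 18.25 TPM in libraries with the KDM2B shRNA label. Its level was therefore higher where the label says knockdown (limma, 0.46 ± 0.11 SE on log2(TPM + 1), adjusted p = 0.0101), and each direction below is that of the labelled libraries. Untreated JuB2 held 17.65 TPM of KDM2B, between the groups and nearer to the KDM2B shRNA label, so scramble stood below untreated cells for the targeted gene. Against scramble, the KDM2B shRNA label came with a median rise of 0.16 over tested genes on this log2 scale. Trimmed-mean scaling removed that shift. The mitochondrially encoded share of TPM was 11.3% to 12.6% under that label, 17.3% to 18.9% in scramble and 19.4% in untreated JuB2. Markers of smooth muscle and fibroblasts, 12 genes, summed to 1656 to 1717 TPM in scramble, 867 to 940 TPM in libraries with the KDM2B shRNA label, 1195 TPM in untreated JuB2 and 33564 TPM in the library labelled EC. Of the 9 tested, 5 fell, 1 rose and 3 did not pass. Those that fell were TAGLN, from 291 ± 17.7 to 50.2 ± 11.2 TPM (SD, n = 3 each), ACTA2, COL1A1, COL1A2 and PDGFRA. COL3A1 rose by 0.14 in log2(TPM + 1) units (limma adjusted p = 0.0439), a call that held in 5 of 16 alternatives, and MYH11, CNN1 and LUM did not pass. Endothelial markers summed to 25.07 to 29.3 TPM in scramble and 42.55 to 51.43 TPM in the other hairpin group, where KDR, EGFL7 and SOX18 rose and FLT1 did not pass. Their sum was 30.89 TPM in untreated JuB2 and 45.39 TPM in the library labelled EC. Leukocyte markers, 7 of 8 with a single row, summed to at most 1.14 TPM. Only 3 of 7 epithelial markers had a single row. These 3 summed to at most 0.98 TPM in JuB2 and 122.53 TPM in the library labelled EC. Of 15 endothelial markers 6 were listed at 0 in the library labelled EC, among them PECAM1, VWF and TIE1, and CDH5 held 0.64 TPM. These defining markers did not bear out the endothelial label of that library, although the whole list summed higher there than in untreated JuB2 or scramble. In untreated JuB2 8 of the 15 were listed at 0, in scramble 8 or 9, and in the libraries labelled KDM2B shRNA 6 or 8. PECAM1, CDH5, VWF and TIE1 were also listed at 0 in untreated JuB2 and in scramble. The part of these shifts in the results below was not tested. Depth is unknown because TPM keeps none.

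MYC, MXD3 and MXD4 fell and MAX and MNT rose in libraries with the KDM2B shRNA label, while MYCL, MXD1, MXI1 and MLX did not pass the test and MYCN was listed at 0 in all 8 libraries. The test was limma on log2(TPM + 1) with Benjamini-Hochberg adjustment over 11485 genes and a threshold of 0.05. Of the 9 tested members 3 were lower and 2 higher. Over all tested genes 50.9% passed, 33.3% higher and 17.6% lower, so the number of network genes that passed was near the background. Of all genes that passed, 65.4% were higher, against 47.5% with trimmed-mean scaling, 51.5% with quantile normalization and 55.6% without the mitochondrially encoded genes. The same 5 genes had groups that did not overlap, against 59.3% of all tested genes. In these bulk libraries fewer cells with a transcript and less of it per cell cannot be told apart.

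**Figure D1:**
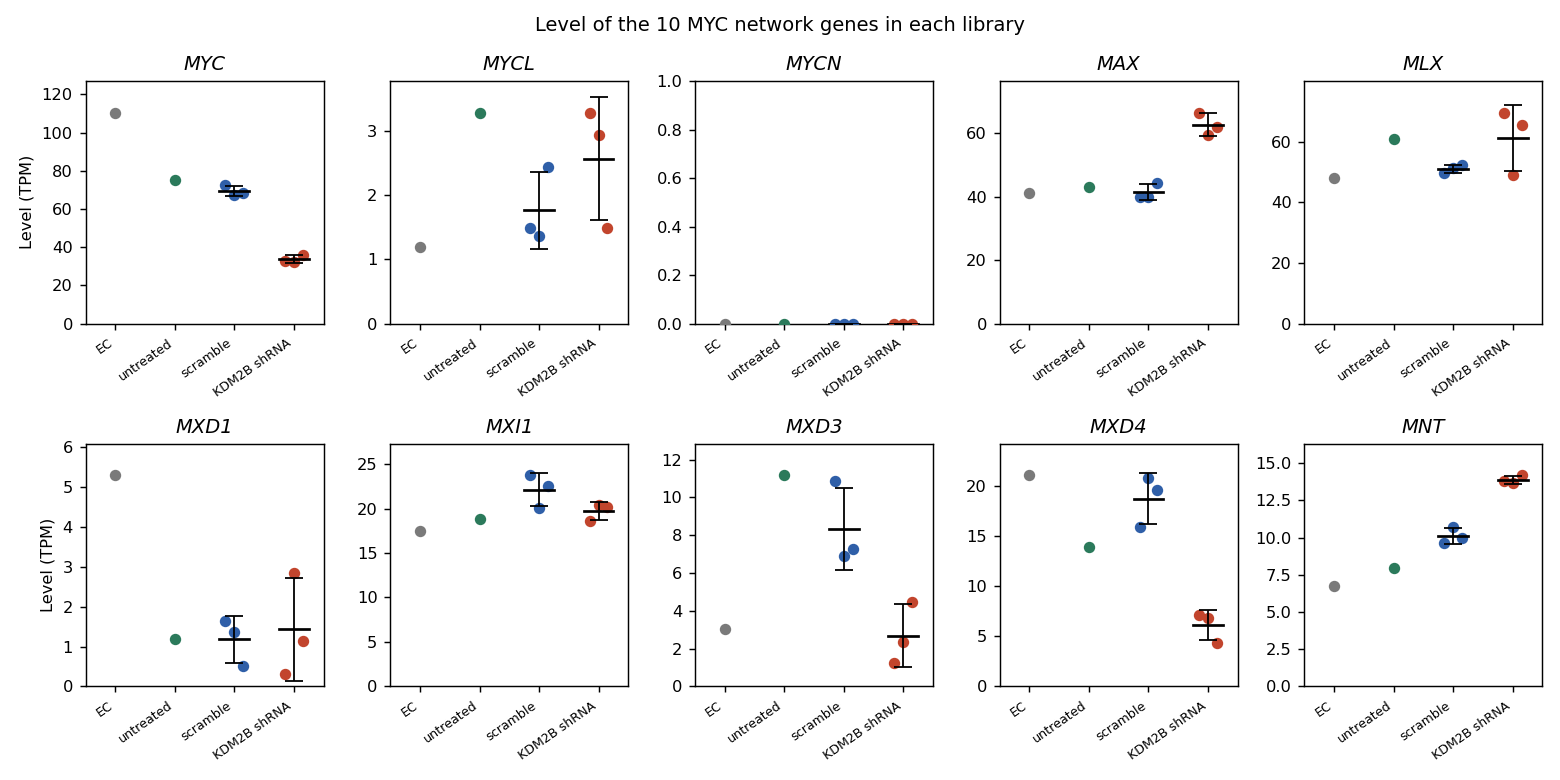
Level in TPM of each of the 10 genes in every library, 1 point per library, with a black line and bar for the mean and SD of 3 replicates. In the libraries labelled KDM2B shRNA the points of MYC, MXD3 and MXD4 lie below all scramble points, and those of MAX and MNT above.

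MYC (ENSCAFG00000001086), the main family member in these cells, held 72.32, 67.46 and 68.33 TPM in scramble, against 32.88, 32.15 and 36.17 TPM in libraries with the KDM2B shRNA label. The groups were far apart relative to their spread, with means of 69.4 ± 2.59 and 33.7 ± 2.14 TPM (SD, n = 3 each). The difference was -1.02 ± 0.08 in log2(TPM + 1) units (SE, limma adjusted p = 8.08e-05), or -1.18 relative to the median gene. MYC was the 411th lowest difference among the 11485 tested genes. Its rank by level among genes above 0 moved from between 2229 and 2344 in scramble to between 4144 and 4571 in libraries with the KDM2B shRNA label. The limma adjusted p of MYC stayed at 0.00106 or below over 16 alternatives.

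Both paralogs of MYC were far below it in each library. MYCN, best known from the nervous system, was listed at 0 throughout. MYCL held 1.48, 1.36 and 2.44 TPM in scramble, against 3.28, 2.93 and 1.48 TPM in libraries with the KDM2B shRNA label. These ranges overlapped and the difference of 0.35 ± 0.29 did not pass (log2(TPM + 1) units with SE, limma adjusted p = 0.346). Untreated JuB2 held 3.27 TPM of MYCL and the library labelled EC 1.2 TPM.

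MAX (ENSCAFG00000016212), the shared partner of MYC, MXD proteins, MNT and MGA, moved opposite to MYC. It held 40.03, 39.88 and 44.31 TPM in scramble, against 66.5, 59.38 and 62.11 TPM in libraries with the KDM2B shRNA label. All values of the second group lay above the first, and the difference was 0.59 ± 0.08 (log2(TPM + 1) units with SE, limma adjusted p = 0.000878), or 0.43 relative to the median gene. MAX passed in 16 of 16 alternatives. Untreated JuB2, at 43.17 TPM, lay within the scramble range.

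MLX (ENSCAFG00000029102) held 49.61, 51.34 and 52.19 TPM in scramble, against 69.49, 49.01 and 65.29 TPM in libraries with the KDM2B shRNA label. Library 2 of the latter lay below every scramble library while the other two lay above. The difference was 0.24 ± 0.13 (log2(TPM + 1) units with SE, limma adjusted p = 0.153), and without that library it was 0.39 ± 0.08 (adjusted p = 0.00947). With trimmed-mean scaling of all 6 libraries it was 0.07 and did not pass.

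MXD4 (ENSCAFG00000014873), an MXD repressor found widely in differentiated tissues, was lower in libraries with the KDM2B shRNA label. Its values were 15.85, 20.73 and 19.56 TPM in scramble, against 7.12, 6.84 and 4.37 TPM in libraries with the KDM2B shRNA label. The difference was -1.49 ± 0.19 (log2(TPM + 1) units with SE, limma adjusted p = 0.000631), the 117th lowest of all tested genes. It ranged from -1.65 to -1.10 over the alternatives and passed in each of the 16.

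MXD3 (ENSCAFG00000016437), the family member linked to the DNA synthesis phase of dividing cells in mouse, was lower in the same libraries. It held 10.85, 6.9 and 7.25 TPM in scramble, against 1.22, 2.34 and 4.49 TPM in libraries with the KDM2B shRNA label. The groups did not overlap but were wide, and the difference was -1.42 ± 0.34 (log2(TPM + 1) units with SE, limma adjusted p = 0.0101). With a pseudocount of 5 it was -0.80, because the levels are low. Leaving out each library in turn kept the limma adjusted p between 0.00372 and 0.0365.

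The remaining repressors differed from this pair. MNT (ENSCAFG00000019295), the most widely expressed MAX-binding repressor, held 9.65, 10.73 and 9.96 TPM in scramble, against 13.81, 13.64 and 14.18 TPM in libraries with the KDM2B shRNA label. Its tight, separate groups gave a difference of 0.42 ± 0.11 (log2(TPM + 1) units with SE, limma adjusted p = 0.0146). The call was lost with trimmed-mean scaling (0.26, adjusted p = 0.0882) and quantile normalization (0.26, adjusted p = 0.0786).

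MXI1 (ENSCAFG00000010706), a MAX-binding repressor of the MXD family, held 23.73, 20.05 and 22.57 TPM in scramble, against 18.62, 20.39 and 20.17 TPM in libraries with the KDM2B shRNA label. The ranges overlapped and the difference of -0.16 ± 0.10 did not pass (log2(TPM + 1) units with SE, limma adjusted p = 0.25), though it passed as lower with trimmed-mean scaling (-0.33, adjusted p = 0.0343). MXD1, which is induced when blood cells differentiate, was barely detected, at 1.65, 1.37 and 0.51 TPM against 0.31, 2.84 and 1.13 TPM. Its groups overlapped in full and its difference changed sign between scalings.

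**Figure D2:**
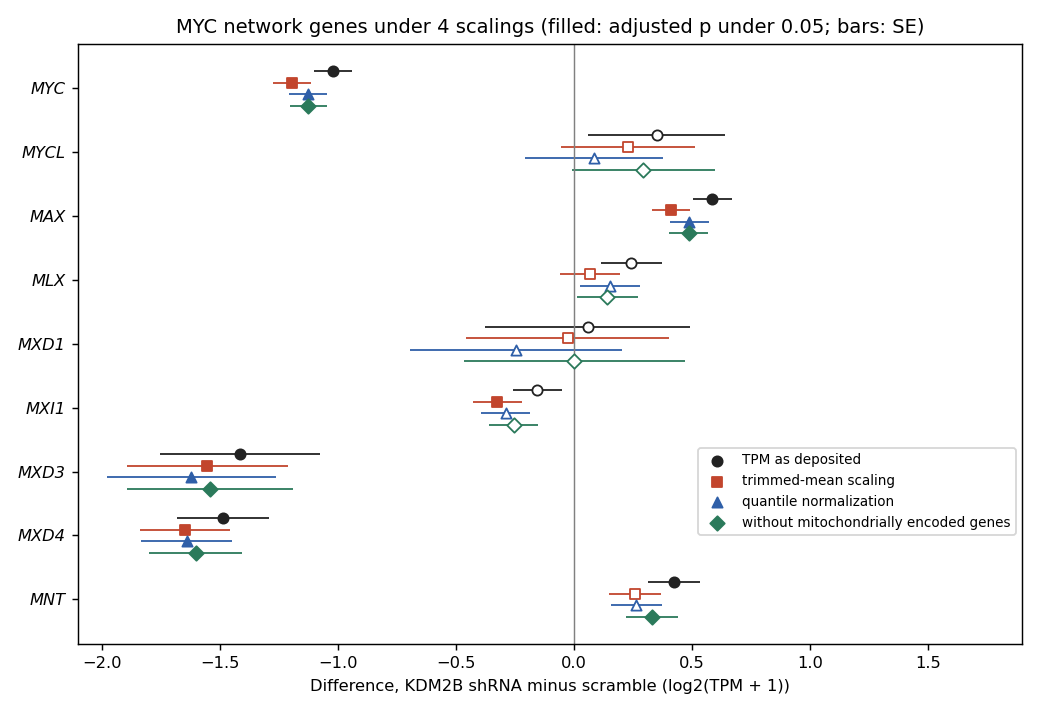
Difference between the libraries labelled KDM2B shRNA and scramble for the 9 tested genes on the log2(TPM + 1) scale, with the limma SE as bars and filled symbols where the adjusted p was under 0.05. MYC, MXD3, MXD4 and MAX are filled under all 4 scalings, MNT under 2 and MXI1 under 1.

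The order of the levels changed between the groups. In scramble it ran MYC, MLX, MAX, MXI1, MXD4, MNT, MXD3, MYCL, MXD1. Here MXI1 and MXD4, MNT and MXD3, and MYCL and MXD1 were neighbours with overlapping ranges. In the libraries labelled KDM2B shRNA MAX led, with a mean of 62.7 ± 3.59 TPM (SD, n = 3), and its range overlapped that of MLX. MYC followed these, then came MXI1 and MNT without overlap, and MXD4, MXD3, MYCL and MXD1 formed a run in which each range overlapped the next.

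Ratios within a library do not move with its scaling. Here they compare transcripts only, since proteins and their dimers were not measured. The ratio of MYC to MAX was 1.81, 1.69 and 1.54 in scramble and 0.494, 0.541 and 0.582 in libraries with the KDM2B shRNA label. MYC was therefore the more abundant transcript of the pair in scramble and MAX in the other group. The transcripts of MXD1, MXD3, MXD4, MXI1 and MNT summed to 60.5 ± 1.11 TPM in scramble, against 43.8 ± 2.52 TPM in libraries with the KDM2B shRNA label (SD, n = 3 each). The ratio of MYC to this sum was 1.17, 1.13 and 1.14 in scramble and 0.800, 0.698 and 0.816 in the other group, so MYC was lower even against repressors whose sum was itself lower.

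The makeup of the repressor transcripts also differed. MXI1 made up 36.6 ± 2.64% of the sum in scramble and 45.03 ± 0.657% in libraries with the KDM2B shRNA label (SD, n = 3 each). MNT went from 16.7 ± 1.16% to 31.7 ± 2.01%, and MXD4 from 31.01 ± 4.73% to 14.0 ± 3.81%. The ratio of MNT to MXD4 was between 0.509 and 0.609 in scramble and between 1.94 and 3.24 in libraries with the KDM2B shRNA label. These shares are given without a test, since a score over chosen members has none here.

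**Figure D3:**
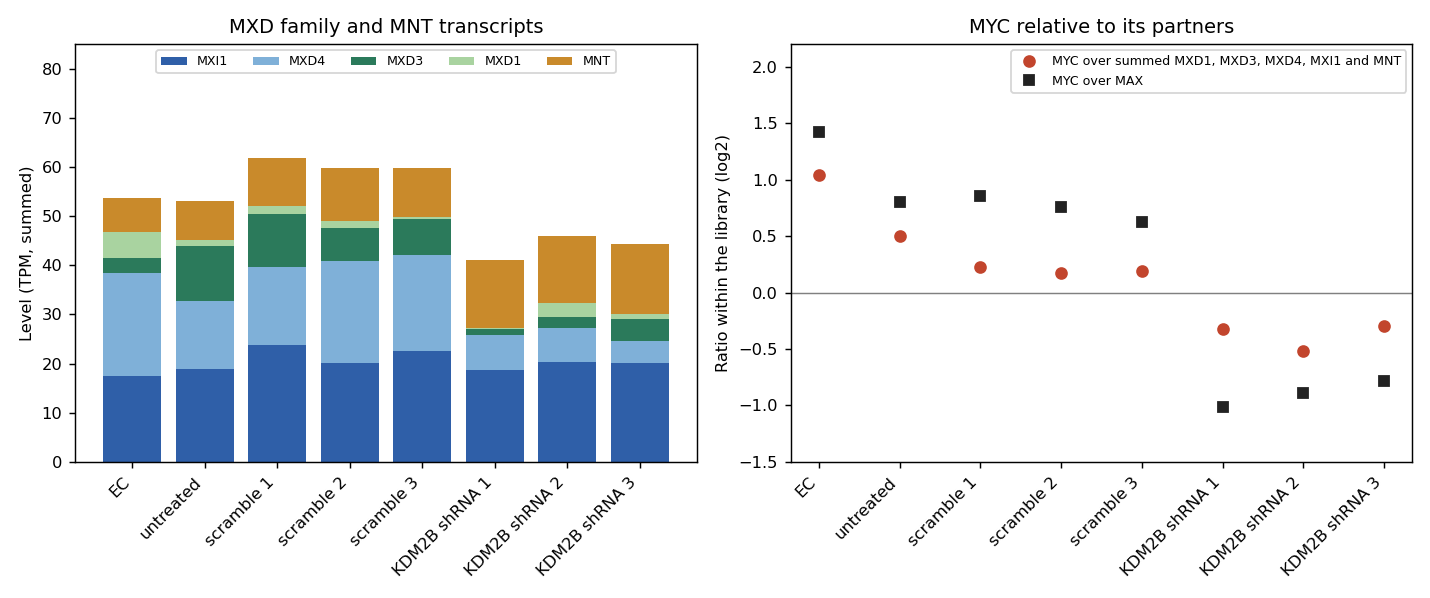
Left, TPM of the 5 repressor genes stacked for each of the 8 libraries. Right, log2 ratio of MYC to the summed repressors (circles) and to MAX (squares) in each library, above 0 in the library labelled EC, untreated JuB2 and scramble and below 0 in the 3 libraries labelled KDM2B shRNA.

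The untreated JuB2 library stood on the scramble side for each of the 5 genes that passed. It was also closer to scramble over all genes with a mean of at least 5 TPM. There its Pearson r on log2(TPM + 1) was 0.964 to 0.966 with scramble and 0.910 to 0.911 with the libraries labelled KDM2B shRNA. The share of all passing genes on that side was not counted. Untreated JuB2 held 75.17 TPM of MYC, 43.17 of MAX, 11.17 of MXD3, 13.92 of MXD4 and 7.94 of MNT. For MYC, MXD3 and MNT it lay beyond the scramble range on the side away from the libraries labelled KDM2B shRNA, and for MXD4 it lay between the groups. MLX, at 60.88 TPM, MXI1, at 18.81 TPM, and MYCL were nearer to the libraries labelled KDM2B shRNA, so for these genes scramble also stood apart from untreated cells. A single untreated library allows no test.

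The library labelled EC held more MYC than any JuB2 library, 110.38 TPM. On the log2(TPM + 1) scale it was 0.55 above untreated JuB2, 0.90 with trimmed-mean scaling and 0.42 without the mitochondrially encoded genes. MXD1 was 1.53 higher on this scale, at 5.29 against 1.18 TPM, and MXD3 was 1.58 lower, at 3.06 against 11.17 TPM. These were the members at least 2-fold apart among the 8 with 5 TPM or more in either library, where 40.9% of 10198 genes were that far apart, 14.2% higher and 26.7% lower. That split of 1451 higher and 2721 lower genes became 2005 higher and 1850 lower with trimmed-mean scaling. The MXD1 difference was below 2-fold with a pseudocount of 5. MXD4 was at 21.03 TPM and MAX at 41.3 TPM, and the signs of MAX, MXI1, MNT and MLX changed with trimmed-mean scaling. MYC over MAX was 2.67 and MYC over the repressor sum 2.06, both above all JuB2 libraries. These values are of 1 library that carried fibroblast and smooth muscle transcripts, and the comparison has no replicate check.

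Genes that MYC is known to raise went both ways, and the counts called in each direction depended on the scaling. Of 46 tested members of a list of such targets 25 rose, 11 fell and 10 did not pass (54.3% and 23.9%, beside 33.3% and 17.6% of all tested genes). Their median difference was 0.29 on the log2(TPM + 1) scale and that of all tested genes 0.16. Trimmed-mean scaling gave 17 higher and 16 lower with a median of 0.11. Over all genes 2626 were then higher and 2902 lower, with a median of -0.003. Quantile normalization gave 20 higher and 12 lower with a median of 0.20, beside 2852 and 2682 of all genes with 0.02. Without the mitochondrially encoded genes the counts were 20 and 12 with 0.19, beside 3115 and 2484 of all genes with 0.06. The list median lay above that of all tested genes under each of these scalings. NOLC1, a nucleolar assembly factor, rose from 28.2 ± 1.34 to 66.2 ± 2.51 TPM (SD, n = 3 each), and NOP2, an rRNA methyltransferase, from 30.1 ± 1.06 to 61.2 ± 4.08 TPM. NCL, nucleolin, rose by 0.59 ± 0.05 in log2(TPM + 1) units (SE, limma adjusted p = 7.89e-05).

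Of the 11 members that fell, SLC1A5 had the smallest p. SLC1A5, a glutamine transporter, went from 187.78, 173.87 and 171.93 TPM in scramble to 65.79, 63.59 and 58.28 TPM, the largest fall of the list. Chosen after their values were seen, SLC7A5, which carries leucine, fell from 139 ± 2.78 to 88.0 ± 6.58 TPM, and BCAT1, a branched-chain aminotransferase, from 34.5 ± 4.72 to 19.1 ± 1.49 TPM (SD, n = 3 each). CDC25A, a cell cycle phosphatase chosen in the same way, rose from 11.4 ± 1.06 to 29.6 ± 2.30 TPM. ODC1, also chosen after its values were seen, is the rate-limiting enzyme of polyamine synthesis and a classical MYC target. It stood at 208 ± 10.3 and 212 ± 9.07 TPM and did not pass (limma adjusted p = 0.739). Over 16 alternatives its difference ranged from -0.15 to 0.06 on the log2(TPM + 1) scale, and it passed in 1. Trimmed-mean scaling, quantile normalization and leaving out the mitochondrially encoded genes were among the settings that changed its sign or call. TERT, which encodes the telomerase subunit, was listed at 0 in all libraries.

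Genes that MYC is known to hold down went both ways, with 6 higher, 3 lower and 6 not passing of 15 tested and a median difference of 0.09 on the log2(TPM + 1) scale. The shares of 40.0% higher and 20.0% lower were near those of all tested genes, 33.3% and 17.6%. With trimmed-mean scaling, quantile normalization or without the mitochondrially encoded genes the counts were 6 higher and 5 lower. CDKN2C, an inhibitor of the kinases CDK4 and CDK6, rose from 42.3 ± 3.49 to 103 ± 16.4 TPM, and CDKN1A, the inhibitor p21, from 52.7 ± 1.16 to 88.5 ± 7.21 TPM (SD, n = 3 each). Untreated JuB2 held 90.49 TPM of CDKN1A, so scramble stood below it. The stress genes GADD45G and GADD45A moved apart, the former from 27.04 ± 1.57 to 51.7 ± 5.77 TPM and the latter from 642 ± 190 to 199 ± 16.4 TPM.

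**Figure D4:**
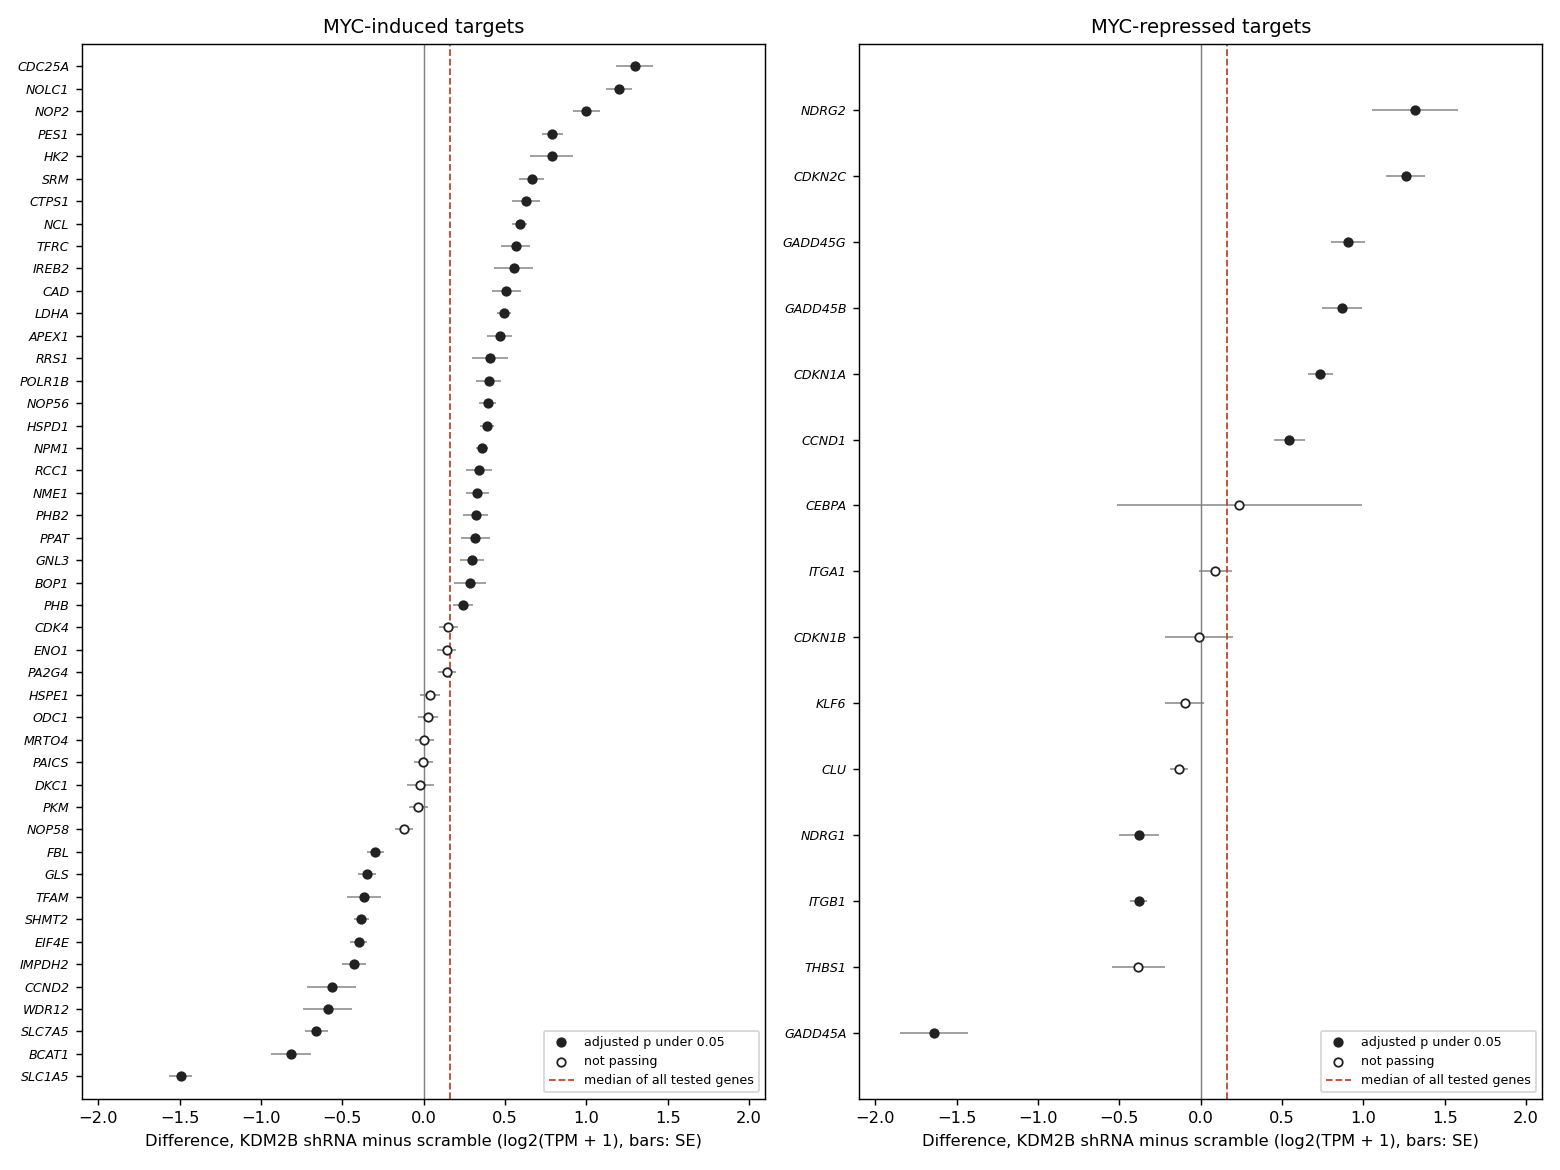
Difference between the libraries labelled KDM2B shRNA and scramble on the log2(TPM + 1) scale for each tested gene of the MYC-induced and MYC-repressed lists, with the limma SE, filled where the adjusted p was under 0.05. The dashed line marks the median of all tested genes, 0.16, and both lists have passing genes on either side of 0.

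Coactivators recruited by MYC were higher in 10 of 15 tested genes and lower in 2 (66.7% and 13.3%, beside 33.3% and 17.6% of all tested genes), with a median difference of 0.33 on the log2(TPM + 1) scale. Under trimmed-mean scaling the counts were 7 and 2, beside 2626 and 2902 of all 11485 genes. HCFC1, a host cell factor that binds MYC and chromatin, rose from 29.9 ± 1.04 to 67.7 ± 6.35 TPM (SD, n = 3 each). CREBBP, a histone acetyltransferase, rose from 7.11 ± 0.214 to 16.05 ± 1.66 TPM. CCNT1, the cyclin of elongation factor P-TEFb, rose by 1.07 and PAF1, an elongation factor, by 0.67 on the log2(TPM + 1) scale (limma adjusted p = 0.000615 and 0.000937).

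The SIN3 and deacetylase corepressors used by MXD proteins and MNT split into 4 that rose, 3 that fell and 6 that did not pass among 13 tested genes, with a median difference of 0.05 on the log2(TPM + 1) scale (trimmed-mean scaling, 4 and 5). These shares, 30.8% and 23.1%, were near the 33.3% and 17.6% of all tested genes. SIN3B, a scaffold of this complex, rose from 18.94, 21.71 and 19.4 to 44.02, 42.38 and 37.3 TPM, and the subunits RBBP4 and SAP18 rose from 151 ± 1.01 to 206 ± 4.82 and from 283 ± 19.1 to 416 ± 12.8 TPM (SD, n = 3 each). SUDS3, another subunit, fell from 37.9 ± 7.88 to 13.2 ± 2.45 TPM. The deacetylase genes HDAC1 and HDAC2, named after their values were seen, did not pass, with differences of 0.02 and 0.08 on the log2 scale that turned negative under 3 other scalings.

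Genes acting on MYC protein stability split into 7 that rose, 4 that fell and 10 that did not pass among 21 tested (median difference 0.10 on the log2(TPM + 1) scale, trimmed-mean scaling 7 and 7). The shares of 33.3% and 19.05% were near the background of 33.3% and 17.6%, and the genes that follow are given for their own values. AURKA and PLK1, mitotic kinases that also stabilise MYC proteins, both rose. AURKA went from 113 ± 6.54 to 189 ± 10.4 TPM and PLK1 from 61.3 ± 5.27 to 115 ± 13.02 TPM (SD, n = 3 each). USP36, a nucleolar deubiquitinase of MYC, rose from 18.5 ± 1.35 to 33.3 ± 1.81 TPM. FBXO32, a ubiquitin ligase subunit, fell from 13.6 ± 3.02 to 5.65 ± 0.934 TPM. FBXW7, the best known ubiquitin ligase of MYC and named after its values were seen, rose from 10.6 ± 0.626 to 20.6 ± 5.28 TPM (limma adjusted p = 0.00437).

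Factors that act on MYC transcription split into 7 that rose, 1 that fell and 10 that did not pass among 18 tested (median difference 0.27 on the log2(TPM + 1) scale), and with trimmed-mean scaling higher in 5 and lower in 4. The share that rose, 38.9%, was near the 33.3% of all tested genes, and 5.56% fell, beside 17.6%. BRD2, a reader of acetylated histones, rose from 64.0 ± 0.68 to 116 ± 2.48 TPM (SD, n = 3 each), and CTCF, an insulator protein, from 32.8 ± 1.65 to 56.3 ± 3.90 TPM. HEXIM1, which restrains P-TEFb, rose by 0.67 and PUF60, a regulator of the far upstream element of MYC, by 0.41 on the log2(TPM + 1) scale (limma adjusted p = 0.00267 and 0.00283).

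On the MLX side, the partner MLXIP held 9.39, 8.92 and 11.72 TPM in scramble, against 13.8, 14.49 and 13.06 TPM in libraries with the KDM2B shRNA label. MGA, a MAX partner and a subunit of a variant Polycomb complex, was at 5.01, 4.19 and 4.1 against 7.37, 5.97 and 6.94 TPM. Both rose (limma adjusted p = 0.0302 and 0.029), and both calls were lost under each of the 3 other scalings and passed in 6 and 8 of 16 alternatives. Leaving out scramble library 2, or library 1 or 3 labelled KDM2B shRNA, ended both calls, scramble library 1 or library 2 labelled KDM2B shRNA that of MLXIP, and scramble library 3 that of MGA. MLXIPL reached at most 0.65 TPM and was not tested. TXNIP, an inhibitor of glucose uptake and the standard readout of MLXIP with MLX, rose from 9.78, 12.55 and 10.87 to 28.69, 24.01 and 27.01 TPM (difference 1.19 ± 0.13, SE, limma adjusted p = 0.000265). Of 6 genes of that kind 2 rose, the other being PFKFB3, a glycolysis regulator, and 4 did not pass, among them ARRDC4 (limma adjusted p = 0.121) and ARRDC3 (limma adjusted p = 0.227). The share that rose, 33.3%, equalled that of all tested genes. The median of the 6 was 0.32 on the log2(TPM + 1) scale, and with trimmed-mean scaling 2 were still higher. The 6 summed to 189.64 to 191.24 TPM in scramble and 232.94 to 241.36 TPM in libraries with the KDM2B shRNA label. Untreated JuB2 held 233.31 TPM, so for this sum, which the most abundant genes weigh on most, scramble stood apart from untreated cells.

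Across the 8 libraries, the genes whose log2(TPM + 1) followed MYC most closely among 8702 genes were TBL1X, FARP1, UBE3B, GOLIM4 and IARS1, with Pearson r between 0.990 and 0.993. TBL1X, a corepressor subunit, stood at 94.37 TPM in the library labelled EC, 55.65 in untreated JuB2, 49.4 to 57.67 in scramble and 21.16 to 25.07 in libraries with the KDM2B shRNA label. The genes with the most opposite pattern were TROAP, TRMT44, AHSA1, ASXL1 and HELZ2, with r between -0.998 and -0.996. TROAP, a mitotic spindle protein, was at 7.04, 15.15, 18.34 to 19.3 and 61.28 to 73.28 TPM in the same order. For MXD4 the closest genes were TMTC1, SLC7A11 and ATL3 (r between 0.976 and 0.986) and the most opposite UQCRC2, CLN3 and VPS26B (r between -0.991 and -0.987). These values are descriptions over libraries that fall into few groups and share the same scaling, so high values are easily reached.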

How the data were processed

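The authors deposited 1 TPM value per gene and library in a single table, and every library sums to about the common TPM total. STAR and RSEM appear with the build CanFam3.1 per the submitters' processing notes, which give no role or version. Per the file headers, each column is 1 library's RSEM output by gene, and replicates stayed separate. Strand use, annotation release and the treatment of reads shared by near-identical genes are not stated there.

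Groups came from the labels. The 3 libraries labelled KDM2B shRNA and the 3 scramble libraries entered a fit by limma 3.58.1 under R 4.3.3 (intensity trend, log2(TPM + 1)), on the 11485 genes reaching 1 TPM in 3 or more of these 6 libraries. Benjamini-Hochberg adjustment ran over all of them with a threshold of 0.05. The procedure was also run on simulated data with independent noise, few changed genes and no shift between groups. In the real data 50.9% of genes passed, so that run does not show how the procedure behaves under so wide a change. On this scale low genes show less than their true fold. Single libraries were compared by value, with 2-fold and 5 TPM as limits and no test. Alternatives changed the scaling, pseudocount, filter, variance prior, libraries in the fit or replicate block, or left out 1 library. Gene lists were matched by symbol, and genes with no row or several rows were left out.

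The members, lists and alternatives were chosen with earlier results of these data known. Named genes were all members, KDM2B, up to 4 tested genes with the smallest p of each list, the 5 (MYC) or 3 (MXD4) genes with the most similar and most opposite pattern at a mean of 5 TPM or more, and the 5 listed genes nearest to MYC on each side. Others are stated to be chosen after their values were seen. The order of genes came from a reference table of the assembly UU_Cfam_GSD_1.0, not the build of these data, and coordinates are left out. Figures were drawn with matplotlib 3.10.9.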

Additional observations from a re-analysis of the deposited data

How the results depend on the processing

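The calls and directions of MYC, MAX, MXD3 and MXD4 held under all 16 alternatives tried for them. With trimmed-mean scaling and with quantile normalization the count of network genes called higher went from 2 to 1, by the loss of MNT. MYC-repressed targets called lower went from 3 to 5 under both of these scalings and without the mitochondrially encoded genes. The difference of MXD1, which never passed, was negative with trimmed-mean scaling (-0.0272), quantile normalization (-0.24) and a pseudocount of 0.1 (-0.0273), and ranged from -0.34 to 0.43 when single libraries were left out. The cause was not tested. Against untreated JuB2, the count of network genes at least 2-fold higher in the library labelled EC went from 1 to 0 with a pseudocount of 5 and when 10 TPM was required, which leaves MXD1 untested. Same-numbered libraries did not pair (correlations of deviations 0.07, 0.04 and -0.03 over 9573 genes, and not every library was closest to its own number). The replicate block left the network at 2 higher and 3 lower and gave 3578 higher and 1870 lower genes in all. Unknown depth limits MXD1, MYCL and MXD3, the genes with the lowest levels.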

Other observations

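The listed genes nearest to MYC on chromosome 13 of the reference table did not share 1 direction. Reference genes without a single matching row were passed over and distances are not given, so these need not be adjacent to MYC. Of the 5 listed genes nearest on each side, 4 were listed at 0 in all 8 libraries (LOC475097, ADCY8, OC90 and HHLA1). EFR3A, which anchors a lipid kinase at the plasma membrane, fell from 147.89, 140.6 and 145.17 TPM in scramble to 66.95, 67.32 and 70.87 TPM with the KDM2B shRNA label, by 1.07 on the log2(TPM + 1) scale (limma adjusted p = 2.91e-05). SQLE, a cholesterol synthesis enzyme, fell from 192 ± 10.5 to 151 ± 7.89 TPM and TRIB1, a pseudokinase, from 31.9 ± 1.70 to 25.7 ± 0.379 TPM (SD, n = 3 each). The TRIB1 call was lost without scramble library 1 and without library 3 labelled KDM2B shRNA (limma adjusted p up to 0.0669). ASAP1, a regulator of ARF GTPases, rose from 73.1 ± 4.01 to 87.4 ± 4.57 TPM, a call lost under the 3 other scalings and without scramble library 3 or libraries 1 or 2 labelled KDM2B shRNA. WASHC5 and ZNF572 did not pass (limma adjusted p = 0.535 and 0.442). Untreated JuB2 held 135.84 TPM of EFR3A and the library labelled EC 32.14 TPM, where MYC was at its highest.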
